A study of Mus musculus with 6 samples.

Results

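The genes described here encode 42 proteins that build ribosomes in the nucleolus and 2 enzymes of polyamine synthesis, Srm and Odc1, which are often listed with them. These 44 members were taken by symbol from a table of 54838 genes. All 44 were found, and all 44 passed the filter on low counts, which kept 13629 genes. RNA came from mouse melanoma cells, given as the line B16F10, cultured with fenofibrate at 50 µM (n = 3 libraries) or as control cultures (n = 3). What the control cultures received and how long treatment lasted are not given in the sources used here. Fenofibrate lowers blood lipids, and the acid formed from it activates the receptor PPARα. The labels name a different line for each library, from B16F10 to B16F15 in order, so grouping followed the sample titles, and if those names were meant as written, line and treatment cannot be told apart. The 3 libraries of a group are called biological triplicates, with no word on separate cultures or days, so the p-values measure the spread between these libraries.

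Ribosome production starts with transcription of the ribosomal DNA repeats by RNA polymerase I. The long precursor RNA is then modified by small nucleolar ribonucleoproteins (snoRNPs): box C/D particles methylate riboses, and box H/ACA particles convert uridines to pseudouridines. Assembly factors fold and cut the precursor into the small (40S) and large (60S) subunits. Genes of this pathway are known as targets of the MYC transcription factor, which binds the E-box CACGTG, and they are usually high in growing tumour cells. In pigment cells the factor MITF also binds E-boxes of this kind.

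Most of the members that passed the test were lower after fenofibrate, and by modest amounts. Of 44 members, 19 fell, 3 rose and 22 were not called at an adjusted p of 0.05 (edgeR's quasi-likelihood test, Benjamini-Hochberg adjustment over all genes tested). Over all 13629 genes, 39.1% were called, 19.5% as lower and 19.5% as higher, against 43.2% of the members as lower and 6.82% as higher. The falls ran from 1.11-fold to 1.75-fold, with a median of 1.27-fold, and the 2 largest were those of Noc2l and Srm. The median log2 fold change of the members was -0.17, beside 0.00 over all genes tested. With library totals in place of TMM (trimmed mean of M-values) scaling, 25 members were lower and 2 higher, and the split over all genes moved from 2662 lower and 2664 higher to 3280 lower and 2180 higher. Members and lists were chosen with results of these data known, so these shares are descriptions and carry no test of the list.

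**Figure D1:**
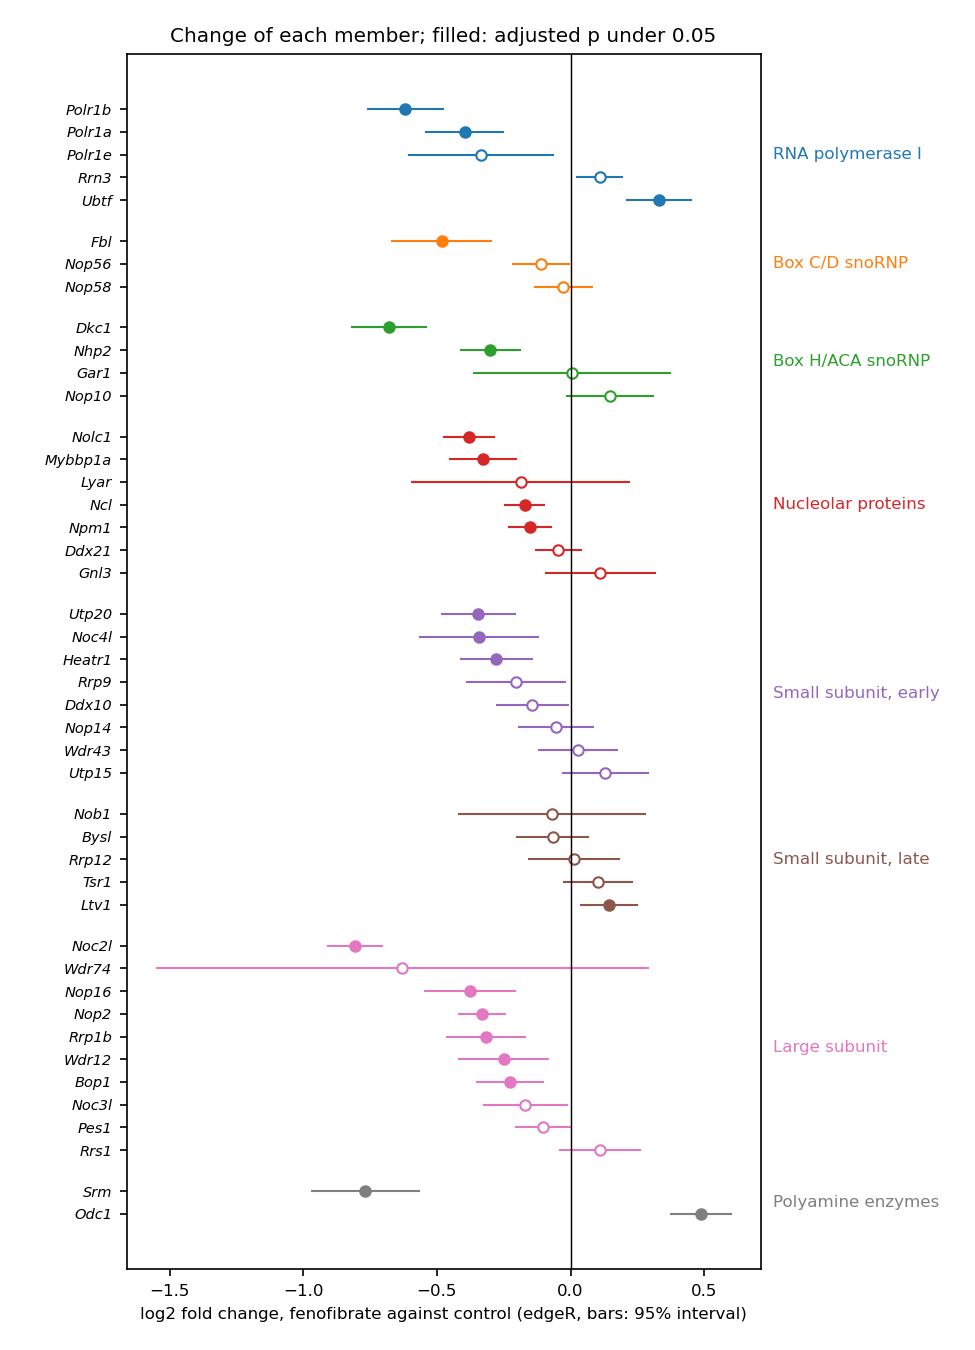
Log2 fold change of each member, fenofibrate against control (x axis), with 95% intervals from edgeR as bars and members grouped by role on the y axis. Filled points passed an adjusted p of 0.05: 19 lie left of 0 and 3 (Ubtf, Ltv1 and Odc1) right of it, and Wdr74 has the widest interval.

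The members together took 0.729% ± 0.0151 of all counts in control and 0.640% ± 0.0109 with fenofibrate (mean ± SD, n = 3 each). This share was 0.739%, 0.736% and 0.711% in the control libraries and 0.627%, 0.646% and 0.646% with fenofibrate, so the groups did not overlap. Libraries held 13540038 to 14710856 counts, and single members were counted between 103 and 21865 times in a library. The median coefficient of variation of a member was 3.89% between control libraries and 4.56% between fenofibrate libraries. Values are shares of each library's RNA: in bulk samples, fewer cells of a type and less RNA per cell cannot be told apart. The 7 pigment cell markers, from Pmel and Tyr to Mitf, were expressed in every library, with a summed level of 21210 to 22590 CPM (counts per 1000000 counts) in control and 26030 to 27580 CPM with fenofibrate. The 18 markers of fibroblasts, blood, epithelial and endothelial cells summed to 6.62 to 8.24 CPM in control and 6.89 to 10.7 CPM with fenofibrate, and 4 of them (Adgre1, Cd3e, Cdh5 and Kdr) had no count in any library. The blood cell markers alone summed to 2.06 to 3.41 CPM in control and 4.18 to 6.87 CPM with fenofibrate, and the part of these markers in the results was not tested.

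Because the pathway is tied to E-box factors, the promoters of the members are shown at these letters first. RefSeq promoters (GRCm38.p6, 250 bases before to 50 after a RefSeq start) were at hand for 38 of the 44 members, and those of Fbl, Npm1, Rrp12, Rrs1, Bop1 and Srm were not used here. Distances are counted from the RefSeq start, which can differ from the gene bounds printed for the members. The hexamer CACGTG, which reads the same on both strands, lies in the window of 8 members, shown with the hexamer in capitals on the strand of the gene.
Nop2: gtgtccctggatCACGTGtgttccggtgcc
Rrn3, far: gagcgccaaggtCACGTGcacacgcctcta
Rrn3, near: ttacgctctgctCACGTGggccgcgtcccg
Pes1: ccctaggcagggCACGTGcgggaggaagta
Wdr43: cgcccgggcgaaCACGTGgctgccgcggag
Tsr1: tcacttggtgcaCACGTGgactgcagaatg
Ltv1: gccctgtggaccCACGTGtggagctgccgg
Utp20: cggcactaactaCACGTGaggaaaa
Mybbp1a: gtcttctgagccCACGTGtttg

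In Nop2 the hexamer begins 60 bases before the start, on chromosome 6 with the printed window at 125131811 to 125131840, and in Rrn3 it begins 215 and 48 bases before the start. In the other 6 members it lies in the first 50 bases from the RefSeq start. In Wdr43 the printed window begins at 71616220 on chromosome 17, while the gene begins at 71615895 in GENCODE M21. Those 8 members make 21.1% of the 38, beside 11.97% of 9574 tested genes with a promoter in the table, and the hexamer is in 7.15% of all 32851 promoters. Of the 8, 3 fell (Nop2, Utp20 and Mybbp1a), 1 rose (Ltv1) and 4 were not called, with a median log2 fold change of -0.04. Of the 30 members without it, 12 fell, 2 rose and 16 were not called, with a median of -0.18. The variant CACGCG, searched on both strands, was in the windows of 15 members (39.5%, beside 20.5% of the tested genes). Counted by promoter, it was in 36.2% of the members', in 17.3% of the tested genes' and in 9.27% of all promoters. Of these 15 members, 5 fell, 2 rose and 8 were not called. Over all genes tested, 19.5% fell and 19.5% rose, and over all 44 members 43.2% fell and 6.82% rose.

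The sequence CCGGAAGT, a core bound by ETS family factors and searched on both strands, was found in 9 members (23.7%, beside 9.77% of tested genes). Counted by promoter, it was in 21.3% of the members', in 8.39% of the tested genes' and in 3.89% of all promoters. The sequence is shown, with the match in capitals, for the 3 that fell, among them Noc2l with the largest fall of all members, and for Wdr74, which was not called. The choice of those shown therefore depended on the results.
Noc2l: gcattctgggcCCGGAAGTgcggcgcacgc
Nhp2: cacttgaaaacCCGGAAGTgatgtcggagg
Heatr1: gtagtgagaagCCGGAAGTtcctatgaggc
Wdr74: gtagtggcgcgCCGGAAGTgcaagccacgg

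In Noc2l the match begins 2 bases before the RefSeq start (window on chromosome 4, 156236002 to 156236031), in Heatr1 16, in Nhp2 23 and in Wdr74 27 bases before it. The window of Heatr1 (chromosome 13, 12395348 to 12395377) lies inside the GENCODE M21 gene, which begins at 12395027. Not shown are Ltv1, which rose and has matches 98 and 56 bases before the start, and Gar1, Polr1e, Rrn3 and Tsr1, which were not called. Of the 9 members with the match, 3 fell, 1 rose and 5 were not called, beside 19.5% of all genes in each direction. Their median log2 fold change was -0.28, beside -0.17 in the 29 without it. A TATAAA box, searched on both strands, was in the window of 2 members, Dkc1 and Pes1 (5.26%, beside 8.25% of tested genes). Counted by promoter, it was in 4.26% of the members', in 6.83% of the tested genes' and in 13.6% of all promoters. These matches are descriptions of letters in a window, and members with and without them were not tested against each other.

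Among the members that transcribe ribosomal DNA, the catalytic subunits fell and the promoter-binding factor rose. Polr1b, the second largest subunit of RNA polymerase I, had 69.5, 70.2 and 71.9 normalised CPM (TMM-scaled) in control and 48.3, 42.9 and 46.6 with fenofibrate. Every treated library lay below every control, and the gene was 1.53-fold lower (adjusted p = 0.000279, log2 change -0.62 with SE 0.06). It is ENSMUSG00000027395 on chromosome 2, 129100995 to 129126594 (GRCm38). Polr1a, the largest subunit, was 1.32-fold lower (adjusted p = 0.00225, 3 of 3 libraries below every control). Polr1e, a smaller subunit, had 15.1, 18.1 and 18.7 normalised CPM in control and 15.1, 13.6 and 12.4 with fenofibrate. Its log2 change of -0.34 (95% interval -0.61 to -0.06) missed the threshold at an adjusted p of 0.0550, but it passed without control replicate 1 (adjusted p = 0.0314) and with library totals (adjusted p = 0.0308).

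Ubtf, the factor that binds and bends the ribosomal DNA promoter, rose 1.26-fold. Its level was 177, 169 and 182 normalised CPM in control and 227, 229.6 and 208 with fenofibrate, with no overlap between the groups (adjusted p = 0.00231, log2 change 0.33 with SE 0.05). It is ENSMUSG00000020923 on chromosome 11, 102304560 to 102319742. Rrn3, which links the polymerase to the promoter factors, had the highest level per length of the 5 members. Its values of 143, 139 and 139 in control and 153, 149 and 152 normalised CPM with fenofibrate did not overlap, but the difference was small (log2 change 0.11, 95% interval 0.02 to 0.20, adjusted p = 0.0528). With RLE (relative log expression) scaling in place of TMM it passed, at an adjusted p of 0.0493. Of 11 other genes of this machinery, 3 fell (27.3%), 1 rose (9.09%) and 7 were not called, beside 19.5% of all genes in each direction. Tcof1, the treacle protein that works with Ubtf, was 1.46-fold lower (adjusted p = 0.000242) and the termination factor gene Ttf1 1.23-fold lower (adjusted p = 0.0157). Taf1d, a subunit of the promoter selectivity complex, was 1.23-fold higher (adjusted p = 0.00201). Without control replicate 1 or 2 the call of Ttf1 was lost, at adjusted p values of 0.0545 and 0.0501, and only 1 of the 11 fell.

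In the box C/D particle, the methyltransferase was lower and its scaffold proteins were not called. Fbl (fibrillarin), which carries out the methylation, had 86.5, 78.2 and 79.6 normalised CPM in control and 51.9, 61.0 and 61.9 with fenofibrate. It was 1.40-fold lower in 3 of 3 libraries (adjusted p = 0.00299, log2 change -0.48 with SE 0.08). Its gene, ENSMUSG00000046865, lies on chromosome 7 from 28169710 to 28179269. Nop56 and Nop58 form the core around which the particle assembles. Nop58 had 279, 286 and 269 normalised CPM in control and 260.0, 271 and 287 with fenofibrate, so the groups overlapped (log2 change -0.03, 95% interval -0.14 to 0.08, adjusted p = 0.689). Nop56 was at 171, 181 and 170.4 in control against 156, 168 and 159 normalised CPM, a log2 change of -0.11 (95% interval -0.22 to -0.0034, adjusted p = 0.0953), without overlap, and with library totals it passed (adjusted p = 0.0269).

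The box H/ACA particle has 4 core proteins, and they did not move alike. Dkc1 (dyskerin), the pseudouridine synthase, had 109, 112 and 104 normalised CPM in control and 69.5, 62.7 and 70.3 with fenofibrate. It was 1.602-fold lower (adjusted p = 0.000186, log2 change -0.68 with SE 0.06), the largest fall among the 7 snoRNP members. The gene is ENSMUSG00000031403 on chromosome X, 75095854 to 75109777. Nhp2, an RNA-binding core protein, had 129.8, 134 and 132 against 101, 108 and 112 normalised CPM and was 1.23-fold lower (adjusted p = 0.00254). Nop10, a small protein that packs against Dkc1, had 65.0, 66.0 and 56.4 in control and 71.0, 68.3 and 68.5 normalised CPM with fenofibrate. Its groups did not overlap, with the treated libraries higher, but the difference was not called (log2 change 0.15, 95% interval -0.02 to 0.31, adjusted p = 0.136). Gar1, which helps release the product, was read unevenly in control, with 36.1, 23.6 and 36.6 normalised CPM against 33.7, 31.4 and 31.5. Control replicate 2 was the low one: the log2 change was 0.01 (95% interval -0.36 to 0.38) with it and -0.18 (adjusted p = 0.124) without it.

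Of 10 genes that complete or assemble either particle or both, 5 fell (50%, beside 19.5% of all genes), 0 rose and 5 were not called. With DESeq2, with no filter or a replicate block in edgeR, or with any 1 library left out, 4 fell. Without fenofibrate replicate 3, 1 rose. The AAA+ ATPases Ruvbl1 and Ruvbl2, which help to assemble snoRNPs, were 1.45-fold (adjusted p = 0.000114) and 1.42-fold lower (adjusted p = 0.000901). By GENCODE M21, 8 of the 44 members carry 22 snoRNA genes inside their own bounds on the same strand, among them Nop56, Nop58, Ncl, Gnl3 and Wdr43. Of these 8 hosts, 2 fell (Dkc1 and Ncl), 1 rose (Odc1) and 5 were not called, beside 19.5% of all genes in each direction. The snoRNAs themselves held 233 counts over all 6 libraries, too few to read a level.

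**Figure D2:**
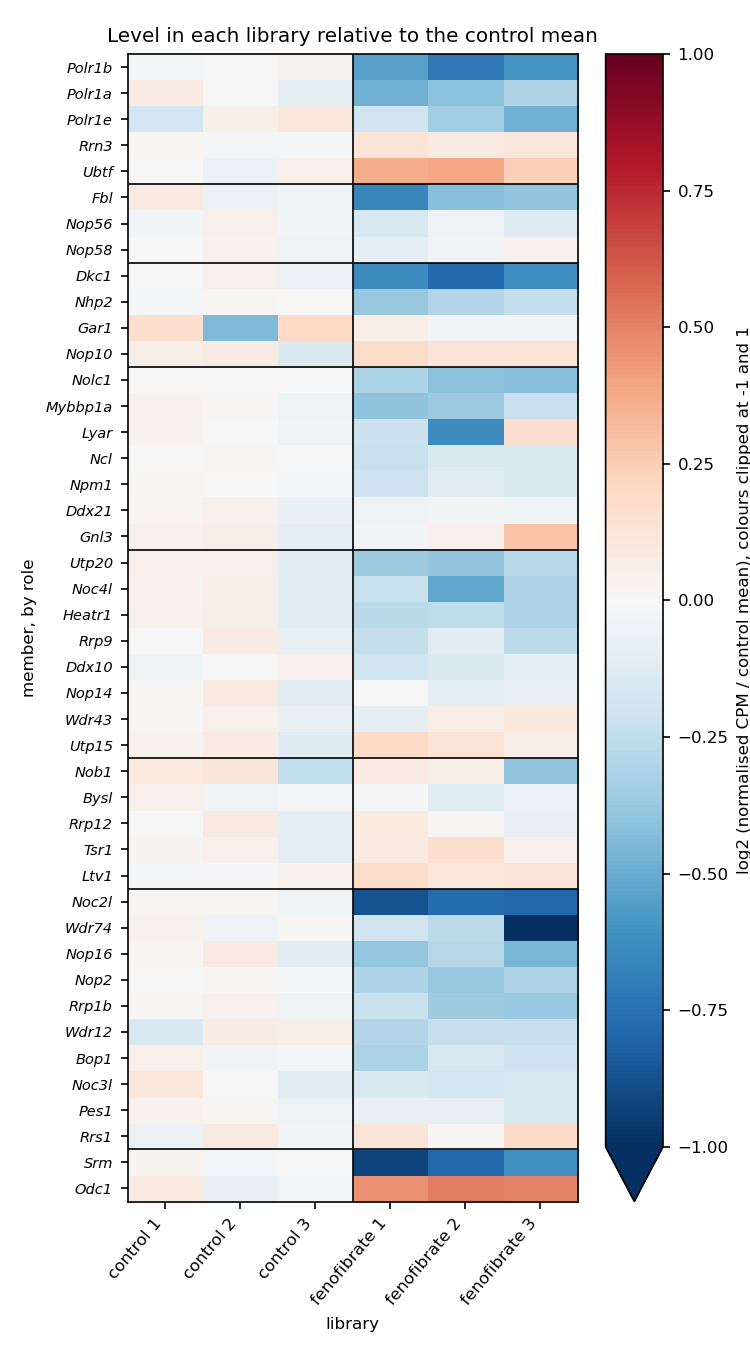
Each row is a member, ordered by role as in the plot of changes, and each column a library. Colour gives log2 of the normalised CPM over the control mean, from blue (lower) to red (higher) and clipped at -1 and 1. The columns of the 3 fenofibrate libraries are mostly blue, with Ubtf and Odc1 in red, and single libraries stand out for Wdr74 (fenofibrate 3) and Gar1 (control 2).

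The abundant nucleolar proteins Ncl and Npm1 had small falls. Ncl (nucleolin), an RNA-binding protein of the nucleolus, had 1510, 1525 and 1514 normalised CPM in control and 1296, 1371 and 1374 with fenofibrate. It was 1.13-fold lower (adjusted p = 0.00543, log2 change -0.17 with SE 0.03). Npm1 (nucleophosmin), a chaperone that shuttles between nucleolus and cytoplasm, had 923, 919 and 906 against 795, 852 and 829.8 normalised CPM. It was 1.11-fold lower (adjusted p = 0.0122, log2 change -0.15 with SE 0.04), the smallest of the 19 falls. In both genes all 3 treated libraries lay below all 3 controls. They are ENSMUSG00000026234 on chromosome 1 (86344719 to 86359400) and ENSMUSG00000057113 on chromosome 11 (33152287 to 33163206).

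Nolc1, a phosphoprotein that shuttles snoRNP parts, showed the largest fall in this class. It had 212, 212 and 213 normalised CPM in control, which is a spread of 0.409%, and 171, 160.1 and 159 with fenofibrate (1.303-fold lower, adjusted p = 0.000415, log2 change -0.38 with SE 0.04). The gene, ENSMUSG00000015176, lies on chromosome 19 from 46075863 to 46085530. Mybbp1a, a nucleolar repressor of transcription, was 1.25-fold lower (adjusted p = 0.00292). Ddx21, an RNA helicase of RNA polymerase I transcription and processing, Gnl3 (nucleostemin) and Lyar were not called. The interval of Ddx21, from -0.13 to 0.04, was narrow, while Lyar was uneven with fenofibrate (34.5, 25.8 and 45.0 normalised CPM against 39.0 to 40.8 in control). Lyar had a log2 change of -0.19 (adjusted p = 0.433), of -0.41 without fenofibrate replicate 3 (adjusted p = 0.0463) and of -0.0065 without fenofibrate replicate 2 (adjusted p = 0.972).

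Of the 8 early factors of the small subunit, 3 fell (37.5%, beside 19.5% of all genes) and 0 rose. The largest fall was that of Utp20, a very long scaffold of the small subunit processome, with 129, 128 and 115 normalised CPM in control and 96.9, 94.1 and 102 with fenofibrate. The groups did not overlap, and the gene was 1.27-fold lower (adjusted p = 0.00344, log2 change -0.35 with SE 0.06). It is ENSMUSG00000004356 on chromosome 10, 88746607 to 88826804. Heatr1, which also promotes RNA polymerase I transcription, was 1.21-fold lower (adjusted p = 0.00776). Noc4l, a partner of Nop14, was 1.27-fold lower (adjusted p = 0.0253), and this call was lost without control replicate 1 or 2 or fenofibrate replicate 2 (adjusted p = 0.0630 to 0.0774) and with a replicate block (adjusted p = 0.0506). Nop14 had the highest level per length of this class and did not differ beyond its spread, with 109.6, 116 and 101 normalised CPM in control and 109, 102 and 103 with fenofibrate (log2 change -0.05, 95% interval -0.20 to 0.09, adjusted p = 0.519). Rrp9 and the helicase gene Ddx10 were lower in all 3 treated libraries without passing the test (adjusted p = 0.0824 and 0.0893), and Wdr43 and Utp15 were not called. With library totals Rrp9 and Ddx10 passed (adjusted p = 0.0387 and 0.0288), which made 5 falls in this class.

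The 5 late factors of the small subunit had 0 falls, beside 19.5% of all genes. Their median log2 change was 0.01, and its sign was not stable: it was -0.041 with library totals, -0.032 without control replicate 3 and -0.029 without fenofibrate replicate 1. Ltv1, which is released when the 40S head matures, had 88.1, 87.4 and 90.7 normalised CPM in control and 101, 95.8 and 97.6 with fenofibrate. It rose 1.10-fold (adjusted p = 0.0424, log2 change 0.14 with SE 0.05), without overlap, but with DESeq2 the adjusted p was 0.104, and edgeR with RLE scaling was the only alternative that kept the call. The gene, ENSMUSG00000019814, lies on chromosome 10 from 13178140 to 13193168. Rrp12, an export factor, Bysl (bystin), the endonuclease gene Nob1 that makes the last cut of 18S rRNA, and Tsr1, which blocks early translation, were not called. Their log2 changes lay between -0.07 and 0.10. Nob1 was uneven within both groups, at 34.1, 34.8 and 27.0 normalised CPM in control and 33.9, 33.2 and 24.3 with fenofibrate. Exons of Tsr1 share 32.3% of their length with Srr on the opposite strand, and with no strand setting stated its counts can hold reads of that gene. The same holds for Bysl, of whose exon length 9.37% lies over Ccnd3 on the opposite strand: Ccnd3 was counted 443 to 3156 times in a library, and Bysl 603 to 668 times.

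Of 44 further small subunit genes, 11 fell (25%, beside 19.5% of all genes), 5 rose (11.4%) and 28 were not called. The rises numbered 1 without control replicate 2 or fenofibrate replicate 3, 2 without any other library, and 1 with library totals or the replicate block. Imp3, a component of the U3 snoRNP, was 1.47-fold lower (adjusted p = 0.00963) and the processome gene Wdr3 1.35-fold lower (adjusted p = 0.00230), while Riok1, a kinase of late 40S maturation, was 1.27-fold higher (adjusted p = 0.00513).

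The large subunit class, the largest, held the most calls, with 6 of 10 members lower (60%, beside 19.5% of all genes) and 0 higher. In the nucleolar protein class the share that fell was 57.1%. With no filter in edgeR, or without control replicate 1 or 2 or any 1 fenofibrate library, 5 large subunit members were lower. With library totals 8 were lower. Noc2l, which with Noc3l escorts 60S precursors out of the nucleolus, had the largest fall of all 44 members. Its level was 174, 174 and 169 normalised CPM in control and 94.1, 101 and 99.99 with fenofibrate, so that treated libraries stood well below controls. It was 1.75-fold lower (adjusted p = 2.53e-05, 95% interval -0.91 to -0.70, log2 change -0.81 with SE 0.05). The gene is ENSMUSG00000095567 on chromosome 4, 156236010 to 156247616, and 20.9% of its exon length overlaps Samd11 on the opposite strand. Samd11 had only 12, 7 and 13 counts in control and 69, 74 and 56 with fenofibrate, against 2329 to 2500 and 1246 to 1440 counts for Noc2l, and it went the other way. Noc3l was lower in all 3 treated libraries but was not called (log2 change -0.17, adjusted p = 0.0860). It passed without control replicate 3 (adjusted p = 0.0344) and with library totals (adjusted p = 0.0359).

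Nop2, a methyltransferase of 28S rRNA, had the highest level per length of this class. It had 215, 215 and 212 normalised CPM in control and 173, 165 and 173 with fenofibrate (1.26-fold lower, adjusted p = 0.000525, log2 change -0.33 with SE 0.04). Its gene, ENSMUSG00000038279, lies on chromosome 6 from 125131909 to 125144753. Nop16 was 1.298-fold lower (adjusted p = 0.00567) and Rrp1b, a nucleolar protein linked to 60S assembly, 1.25-fold lower (adjusted p = 0.00637).

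Bop1, Pes1 and Wdr12 form the PeBoW complex, which is needed to process the large subunit RNA. Bop1 was 1.17-fold lower (adjusted p = 0.0140) and Wdr12 1.19-fold lower (adjusted p = 0.0298). Pes1 had 147, 145 and 139 in control and 136, 136 and 129 normalised CPM with fenofibrate, a log2 change of -0.10 (95% interval -0.21 to 0.00, adjusted p = 0.105), and it passed with library totals (adjusted p = 0.0284). The 3 intervals overlap, and differences between these subunits were not tested. The call of Bop1 was lost without control replicate 1 (adjusted p = 0.0503). The call of Wdr12 was lost without each of control replicates 2 and 3 and fenofibrate replicates 1, 2 and 3 (adjusted p = 0.0589 to 0.0937), and with no filter on low counts (adjusted p = 0.0565).

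Wdr74, which acts with the ATPase Nvl in 60S assembly, shows what 1 library can do to a value. It had 31.0, 29.4 and 30.6 normalised CPM in control and 26.4, 25.3 and 7.15 with fenofibrate. The log2 change was -0.63 (95% interval -1.55 to 0.29, adjusted p = 0.244), and -0.23 without fenofibrate replicate 3 (adjusted p = 0.0550). Rrs1, which helps to bring the 5S particle into the 60S precursor, was not called (log2 change 0.11, adjusted p = 0.219). Of 43 further large subunit genes, 12 fell (27.9%), 3 rose (6.98%) and 28 were not called, beside 19.5% of all genes in each direction. Only 1 rose without control replicate 1 or fenofibrate replicate 1 or 2, and with library totals 19 fell and 1 rose. Tex10, a part of the rixosome, was 1.44-fold lower (adjusted p = 0.00583) and the helicase gene Ddx31 1.41-fold lower (adjusted p = 0.00427), while Pak1ip1 was 1.298-fold higher (adjusted p = 0.000930).

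The polyamine enzymes moved apart. Odc1, ornithine decarboxylase, makes putrescine, and Srm, spermidine synthase, turns putrescine into spermidine. Srm had 44.4, 43.0 and 43.5 normalised CPM in control and 23.0, 25.3 and 28.6 with fenofibrate, and was 1.70-fold lower (adjusted p = 0.000503, log2 change -0.77 with SE 0.09). Odc1 had 298, 265 and 276 against 384, 399 and 394 normalised CPM, and rose 1.40-fold (adjusted p = 0.000294, log2 change 0.49 with SE 0.05). Neither gene's groups overlapped. Srm is ENSMUSG00000006442 on chromosome 4 (148591503 to 148594993) and Odc1 ENSMUSG00000011179 on chromosome 12 (17544794 to 17551505).

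Of 12 other polyamine genes, 5 rose (41.7%), 1 fell (8.33%) and 6 were not called, beside 19.5% of all genes in each direction. Only 3 rose without control replicate 1 or fenofibrate replicate 1. Azin2 (2.19-fold, adjusted p = 0.00123) and Oaz2 (2.06-fold, adjusted p = 0.0173) rose, which encode an inhibitor of antizymes and an antizyme, the proteins that send ornithine decarboxylase to degradation. Oaz2 was uneven, with 892, 430 and 877 counts in the fenofibrate libraries against 320 to 381 in control. Its call was lost without control replicate 1 or without fenofibrate replicate 1 or 3 (adjusted p = 0.0542 to 0.0592). Amd2, an S-adenosylmethionine decarboxylase gene, was 1.37-fold lower (adjusted p = 0.0482), and without any library but fenofibrate replicate 1 its call was lost (adjusted p = 0.0610 to 0.139). Its close copy Amd1 was counted 156, 1641 and 1183 times in control, so reads of this pair are uncertain.

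**Figure D3:**
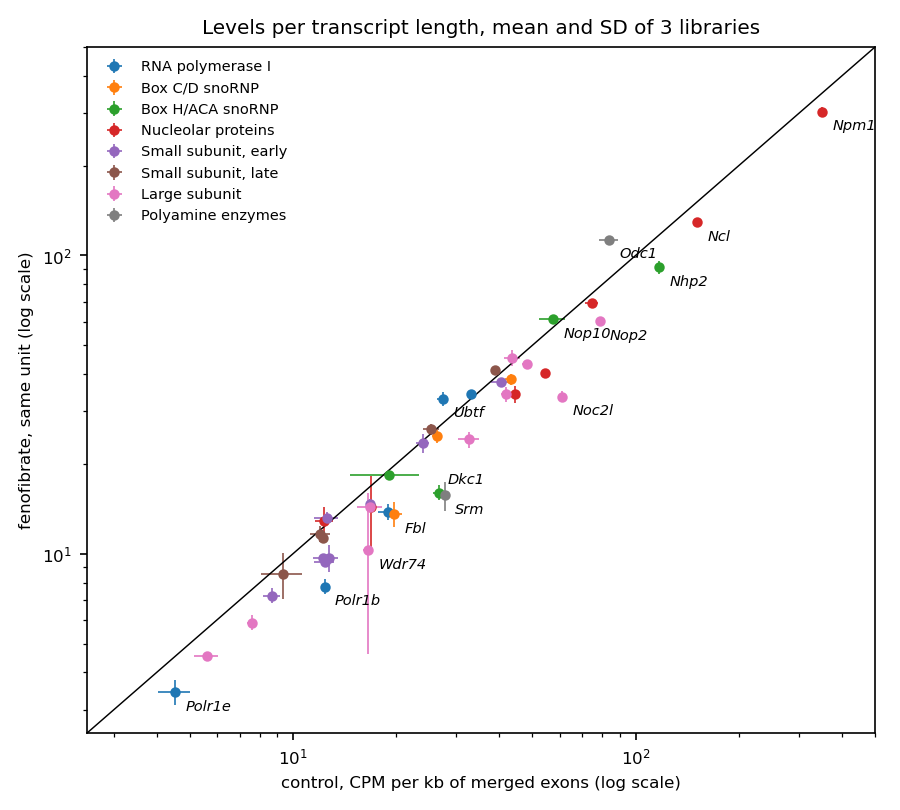
Mean level of each member in control (x axis) and fenofibrate (y axis), in CPM per kb of merged exons on log axes, with SD of 3 libraries as bars and the line of equal levels. Npm1 and Ncl are the highest in both groups, Polr1e is the lowest, and most points lie below the line.

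Levels between genes can be compared only per length, and their order depends on the length used. The merged length counts every annotated exon of a gene and is not a transcript length. In Nop56, Nop58, Ncl and Gnl3 it also covers snoRNA genes. The deposited FPKM divides by a length that for the members was a median 1.32 times, and for Nop56 3.72 times, the merged length of the annotated exons, so levels are given here in CPM per kb of merged exons, without TMM scaling. In control they ran from 4.52 ± 0.486 for Polr1e to 350.0 ± 4.67 for Npm1 (mean ± SD, n = 3). Ncl followed at 152 ± 0.920, Nhp2 at 117 ± 1.59, Odc1 at 83.6 ± 5.23 and Nop2 at 78.6 ± 0.916. With fenofibrate, Npm1 stood at 304 ± 11.3, Ncl at 130 ± 4.44, Odc1 at 113 ± 2.41 and Nhp2 at 91.5 ± 4.49, so on this scale Odc1 and Nhp2 had changed places. In the deposited FPKM, Nhp2 stayed above Odc1, with means of 76.2 against 41.3 in control and 59.5 against 55.7 with fenofibrate.

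The 4 proteins of the H/ACA core had unequal transcript levels on this scale. In control, Nhp2 was at 117 ± 1.59, Nop10 at 57.3 ± 4.998, Dkc1 at 26.7 ± 1.09 and Gar1 at 19.0 ± 4.36. With fenofibrate, they were at 91.5 ± 4.49, 61.2 ± 1.21, 16.0 ± 0.945 and 18.4 ± 0.693, so on this scale Dkc1 was lower than Gar1 in all 3 treated libraries. That order depends on the length used. In the deposited FPKM, Dkc1 stayed above Gar1, with means of 18.8 against 9.52 in control and 11.3 against 9.20 with fenofibrate. In the C/D core, Nop56 was at 43.2 ± 1.48, Nop58 at 26.3 ± 0.890 and Fbl at 19.7 ± 1.12 in control, and at 38.5 ± 1.60, 24.8 ± 1.23 and 13.6 ± 1.31 with fenofibrate, in the same order. In the deposited FPKM the order was another: Nop58 at 19.3, Fbl at 15.6 and Nop56 at 11.6 in control. With fenofibrate those means were 18.3, 10.7 and 10.3. Across the 44 members, Spearman's rho between the log2 change and the control level was 0.11, and with merged exon length 0.01, as a description over genes measured in the same libraries.

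In the rest of the pathway, too, lower calls outnumbered higher ones. Of 127 other ribosome biogenesis genes tested in 5 lists, 39 fell (30.7%, beside 19.5% of all genes), 9 rose (7.09%, beside 19.5%) and 79 were not called, with a median log2 change of -0.10. With library totals 54 fell and 3 rose, with the replicate block 29 fell and 4 rose, and without control replicate 1 or 2 or fenofibrate replicate 1, 28 or 29 fell and 4 rose; without control replicate 3 or fenofibrate replicate 2, 5 rose. Among 19 exosome and rRNA nuclease genes tested, 8 fell (42.1%, beside 19.5% of all genes) and 0 rose. But 4 fell without control replicate 2, and 4 fell and 1 rose without fenofibrate replicate 2 or with the replicate block. Without control replicate 1 or fenofibrate replicate 1, 5 fell. Pop1, a subunit of RNases P and MRP, was 1.74-fold lower (adjusted p = 9.76e-05) and the exosome ribonuclease gene Dis3 1.37-fold lower (adjusted p = 0.00120). Of 12 long RNAs that host snoRNAs, 2 rose (16.7%), 1 fell (8.33%) and 9 were not called, each share under the 19.5% of all genes. Their median log2 change was 0.23, and 1 of the 12 had a change below 0. Snhg5 was 1.56-fold (adjusted p = 0.00490) and Snhg17 1.35-fold higher (adjusted p = 0.00216), and Snhg20 was 1.49-fold lower (adjusted p = 0.0158), a call lost without control replicate 2 or 3 (adjusted p = 0.0550 and 0.0525).

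**Figure D4:**
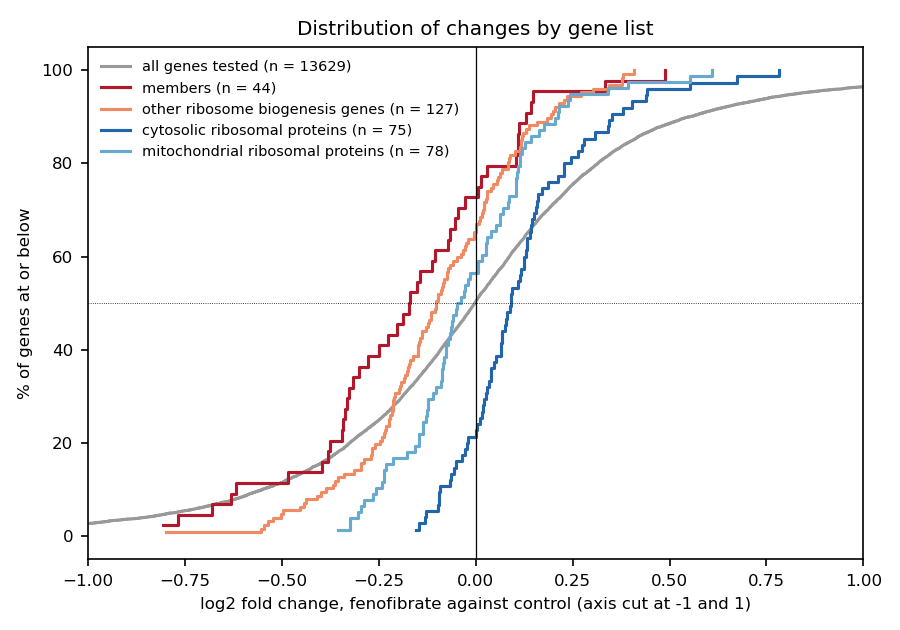
Share of genes (y axis, %) at or below each log2 fold change (x axis, cut at -1 and 1) for the members, other ribosome biogenesis genes, cytosolic and mitochondrial ribosomal protein genes and all genes tested. The curves cross 50% at -0.17 for the members, -0.10 for the other biogenesis genes, -0.04 for mitochondrial and 0.09 for cytosolic ribosomal proteins.

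Of 75 cytosolic ribosomal protein genes, 16 rose, 1 fell (Rpl8) and 58 were not called, with a median log2 change of 0.09. The share that rose, 21.3%, was near the 19.5% of all genes, and the share that fell was 1.33%, beside 19.5%. Without fenofibrate replicate 1 or 2, 8 and 9 rose, and without control replicate 1 or 2, 10 rose. With library totals in place of TMM, 8 rose and 2 fell, with a median of 0.04. These genes have many processed copies in the genome, and their counts are uncertain where reads could be shared. Of 78 mitochondrial ribosomal protein genes, 5 rose (6.41%, beside 19.5%), 7 fell (8.97%, beside 19.5%) and 66 were not called (median -0.04). With library totals 4 rose and 15 fell, 3 rose without control replicate 1 or fenofibrate replicate 2, and 2 rose without control replicate 2. The difference between these lists and the members was not tested.

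Myc was counted 657, 698 and 640 times in control and 764, 739 and 785 times with fenofibrate. It was 1.15-fold higher (log2 change 0.21, adjusted p = 0.0272) in 3 of 3 libraries. The call did not hold in most alternatives: with library totals its adjusted p was 0.0761, with DESeq2 0.0627, and leaving out any library but fenofibrate replicate 2 gave 0.0546 to 0.0793. Its partner Max was not called (log2 change -0.17, adjusted p = 0.445), but without control replicate 1, which was the lowest, it was -0.35 (adjusted p = 0.0173). Mycn had 1 count and Mycl 0 counts over all 6 libraries.

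Apart from the test, 32 members had groups that did not overlap, 26 lower and 6 higher with fenofibrate. Over all genes tested this held for 53.3%, 26.9% lower and 26.4% higher. Of the 19 falls, 16 were called in every one of the 15 alternative settings, and so were 2 of the 3 rises (Ubtf and Odc1). The exons of 19 members overlap another annotated gene. Of the 25 without overlap, 9 fell and 3 rose, beside 19.5% of all genes called in each direction. Annotated pseudogenes of 5 members, Npm1, Fbl, Dkc1, Nop10 and Nop56, held at most 0.00713% as many counts as the member, though how shared reads were assigned is not stated.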

How the data were processed

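RNA was sequenced from 3 control and 3 fenofibrate libraries, grouped by title. The authors deposited 1 table of raw counts and FPKM values per gene, per the file headers. The submitters' processing notes list GRCm39 as a build and, as tools, StringTie 1.3.0 and HISAT2 2.0.4, with no roles; the counting tool and strand setting are not given in the sources used here. Gene coordinates match GENCODE M21 (GRCm38) for 98.7% of the shared IDs and for 43 of 44 members, so they are given as GRCm38. Counts were tested in R 4.3.3 with edgeR 4.0.16 (filterByExpr, TMM, glmQLFit, glmQLFTest, no covariate), and the test was tested on simulated data. SE is the log2 fold change divided by the root of F. With 13540038 to 14710856 counts, a count of 0 in a library allows 0.204 to 0.222 CPM (3 counts, counting error only). Alternatives used DESeq2 1.42.0, other scalings, no filter, a replicate block, limma 3.58.1 on log2 of the deposited FPKM plus 0.1, 0.5 or 1, and each library left out. In each role class, values of every library are given for the called members of largest change in each direction and the member of highest FPKM; from other lists up to 2 called genes in the main direction and 1 in the other. Further members with uneven or non-overlapping libraries, Nop56, Nop10, Gar1, Polr1e, Pes1, Lyar, Nob1 and Wdr74, and Amd1, Samd11 and Rpl8 were added after their values were seen. Ncl, with values of every library, and Ccnd3, with its range of counts, are likewise given outside this rule. Members and lists were chosen with earlier results of these data known.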

Additional observations from a re-analysis of the deposited data

How the results depend on the processing

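Over 15 alternatives, between 17 and 25 members were lower and 2 to 4 higher, and no count over members or all genes moved by more than 1.5 times. Of the 19 lower calls, Noc4l, Bop1 and Wdr12 were lost in at least 1 setting, and of the 3 higher ones Ltv1. The median log2 fold change of the members ran from -0.22 to -0.16. With library totals it was -0.22, and the median of all genes was -0.06. Among the 44 members the sign changed for 5, none of them called. Gar1 went from 0.0067, Wdr43 from 0.028 and Rrp12 from 0.014 to -0.048, -0.027 and -0.041 with library totals. In the limma fits with 0.5, 0.1 and 1 added, Gar1 was at -0.0213, -0.0210 and -0.0215, Wdr43 at -0.0278, -0.0286 and -0.0270 and Rrp12 at -0.0385, -0.0398 and -0.0370, and with no filter at -0.0213, -0.0278 and -0.0385. Leaving out 1 library gave -0.18 to 0.11 for Gar1, -0.013 to 0.087 for Wdr43, -0.032 to 0.061 for Rrp12, -0.065 to 0.0073 for Nop58 and -0.18 to 0.069 for Nob1. With library totals or limma on filtered genes, Polr1e, Nop56, Rrp9, Ddx10, Pes1 and Noc3l were also called lower. The deposited FPKM is itself scaled by library totals without TMM, so the limma fits share that scaling and are not separate checks of it. Same-numbered libraries share only a number: their deviations from the group means correlated by 0.01 to 0.03 across genes, each library best with its own number, which is a hint from the data and not from the design. With the replicate block, 18 members were lower and 2 higher, with 2247 genes lower and 2293 higher in all; Noc4l (adjusted p = 0.0506), Ltv1 (0.0898), Myc (0.0653) and Amd2 (0.0797) lost their calls. The median SE of a member was 0.06 on the log2 scale, and the smallest called change among them was the 1.10-fold rise of Ltv1, so smaller changes may go uncalled with 3 libraries a group.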
